A study of Mus musculus with 14 samples.

Results

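Fabp1, Fabp2, Rbp2, Apoa1, Apoa4, Apob, Apoc3 and Mttp are the intestinal genes that bind absorbed fatty acids and retinol inside enterocytes and build and coat the lipoprotein particles that carry them away. These 8 genes were taken by symbol from every file of RNA counts, and all 8 were found there, of 17418 genes tested in the bulk libraries and 9389 genes of at least 10 CPM (a gene's counts scaled to the library's total) in the Isx-9 or the DMSO single-cell library. Mouse intestinal organoids given Isx-9, a small molecule used at 25 µM, were compared with organoids given its vehicle, DMSO at 0.05%, with both begun on day 2 after passage in a medium with EGF, Noggin and R-spondin1. For bulk RNA, organoids with an Lgr5-EGFP knock-in were treated for 6 hours and their stem cells were sorted, giving 2 Isx-9 and 2 DMSO libraries. Single-cell RNA-seq (10x Genomics) covered whole organoids with 1 library each: Chgb-mCherry knock-in organoids after 6 days of Isx-9, the same reporter organoids after 6 days of DMSO, untreated reporter organoids, and untreated wild-type organoids. The 6 ATAC-seq samples of sorted stem cells were not analysed here.

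Enterocytes take up fatty acids and monoglycerides at the brush border, rebuild triglyceride in the endoplasmic reticulum and load it onto apolipoprotein B to form chylomicrons. Fatty acid binding proteins shuttle the lipids through the cytosol, and the cellular retinol binding protein of the small intestine does the same for retinol and retinal from dietary vitamin A. Microsomal triglyceride transfer protein performs the loading step, and the smaller apolipoproteins A-I, A-IV and C-III coat the particle. The genes are known as markers of mature villus enterocytes, and organoids grow these cells in their differentiated domains.

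Apoa1, Apoc3 and Apoa4 lie next to each other on chromosome 9 within 14829 bases (chr9:46228630-46243458, GRCm38.p6). Rbp2 lies farther along the same chromosome, Fabp2 and Mttp on chromosome 3, Fabp1 on chromosome 6 and Apob on chromosome 12. Promoters of 7 members were matched in the RefSeq table for GRCm38.p6; Apoc3 had no match. The 250 bases before the start of 3 members are shown because the results turn on them: Fabp1 had the lowest ratio of Isx-9 to DMSO at 6 days, Rbp2 is the retinol carrier, and Apob was the member that was higher at both times. Capitals mark the motifs found, all windows are on the plus strand, and the windows lie at chr6:71199629-71199878 for Fabp1, chr9:98490287-98490536 for Rbp2 and chr12:7977427-7977676 for Apob. The start used for Apob lies inside the annotated span of the gene, which begins at 7977629.
Fabp1: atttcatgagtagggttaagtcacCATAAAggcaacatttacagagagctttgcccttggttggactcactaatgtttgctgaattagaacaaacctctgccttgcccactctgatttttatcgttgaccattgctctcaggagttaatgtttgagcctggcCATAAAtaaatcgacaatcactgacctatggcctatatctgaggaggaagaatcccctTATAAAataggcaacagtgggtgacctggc
Rbp2: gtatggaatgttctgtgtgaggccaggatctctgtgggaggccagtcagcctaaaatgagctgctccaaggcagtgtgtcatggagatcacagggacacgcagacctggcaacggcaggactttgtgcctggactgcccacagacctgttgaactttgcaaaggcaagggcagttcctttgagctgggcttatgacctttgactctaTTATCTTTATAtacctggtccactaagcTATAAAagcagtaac
Apob: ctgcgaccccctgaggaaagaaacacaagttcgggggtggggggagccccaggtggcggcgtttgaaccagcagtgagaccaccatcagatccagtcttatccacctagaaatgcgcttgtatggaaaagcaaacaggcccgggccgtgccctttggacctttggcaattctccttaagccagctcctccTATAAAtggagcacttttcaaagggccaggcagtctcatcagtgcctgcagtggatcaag

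Both strands of these 250 bases were searched for motifs of intestinal regulators. The letters TTTATG stood for the homeobox factors of the CDX family. The zinc finger factors of the gut were given by AGATAA, called the GATA letters here. The start site box was given by TATAAA and the nuclear receptor HNF4 by CAAAGTCCA, and the direct repeat bound by HNF4 and PPAR and the HNF1 motif were searched as well. Fabp1 held the CDX letters at 2 places, 226 to 221 and 88 to 83 bases before the start, both read on the opposite strand, and a TATA box 30 to 25 bases before it. Rbp2 held the GATA letters 43 to 38 bases before the start, overlapping by a base a TATA match on the opposite strand at 38 to 33, and a second TATA match at 15 to 10. Apob held a TATA match 60 to 55 bases before the start. No searched letters were in the windows of Fabp2, Apoa1, Apoa4 and Mttp. Of 32851 mouse promoter windows of this length, 10.8% held the CDX letters, 9.99% the GATA letters and 12.4% the TATA letters, while the HNF4, direct repeat and HNF1 letters were in 0.384%, 0.0335% and 0.371%. These matches describe the letters and say nothing of binding.

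The 4 bulk libraries held 19025875 and 19431905 counts after Isx-9 and 19487264 and 18909542 counts after DMSO. Lgr5, the receptor gene by which the cells were sorted, was at 312 and 320 CPM after Isx-9 and at 378 and 341 CPM after DMSO. The labels do not say that replicates came from separate cultures, and p-values below therefore reflect library-to-library spread alone, which may be technical. Bulk RNA cannot tell fewer cells of a type from less RNA per cell. The single-cell libraries held 12201 cells after Isx-9, 11632 after DMSO, 11885 of untreated reporter and 10830 of wild type. Filters left 9215, 8251, 8841 and 8045 of them, with medians of 8897, 13111, 12327 and 14563 molecules (UMIs) per cell, so the Isx-9 library was the shallowest per cell. Any pair of libraries shared 32 to 52 cell barcodes. With 1 library a condition no test was possible in single cells, and all intervals given there are 95% and cover counting error only.

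After 6 hours in sorted stem cells Apob rose, no member fell, and the other 6 tested members did not pass the test. Fabp1 was called lower in some alternatives given below. Apob encodes the large structural protein on which each chylomicron is built. It had 9919 and 9250 counts after Isx-9, against 4710 and 4577 counts after DMSO, which is 494 and 461 CPM against 254 and 252 CPM. Both Isx-9 libraries lay far above both DMSO libraries, and the libraries of each treatment were close together. The means were 478 ± 23.1 CPM after Isx-9 and 253 ± 0.962 CPM after DMSO (SD, n = 2 each). The log2 fold change was 0.92 with a standard error of 0.073 (edgeR quasi-likelihood test, adjusted p = 3.05e-06). Among all tested genes, 27.3% rose, 20% fell, 47.3% did either, and in 73.7% the libraries of the treatments did not overlap. Read against that background, 1 riser among 7 tested members lies below the common share. The gain of Apob stood out among abundant genes: of 2520 genes above 100 CPM in DMSO, 4.13% rose and 58.4% fell, and Apob had the fourth highest log2 fold change. In the authors' deposited table, Apob had a log2 fold change of 0.93 with an adjusted p of 1.15e-29.

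**Figure D1:**
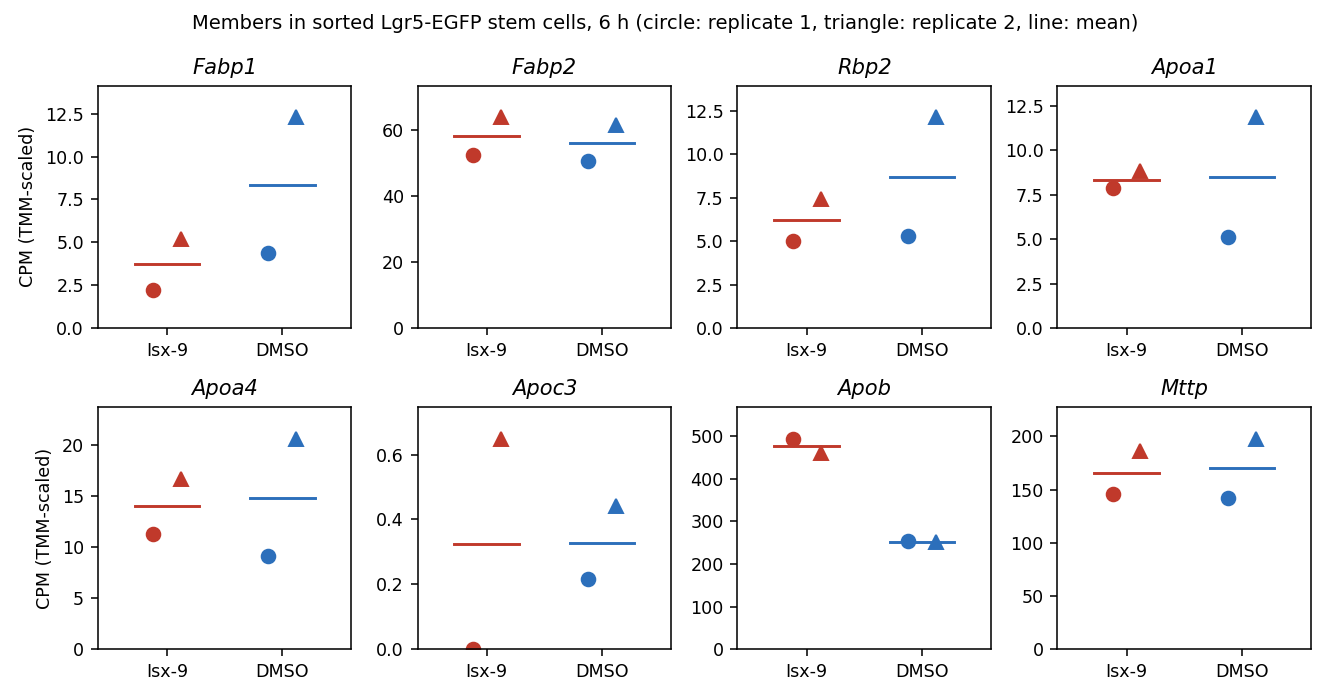
TMM-scaled CPM of each gene in the 4 bulk libraries of sorted stem cells (6 hours), Isx-9 left and DMSO right, circles for replicate 1, triangles for replicate 2 and lines for the mean. Apob is the gene whose Isx-9 libraries (494 and 461 CPM) both lie above its DMSO libraries (254 and 252 CPM); in the other panels the treatments overlap.

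Mttp, whose product loads triglyceride onto apolipoprotein B, was at 146 and 186 CPM after Isx-9 and at 142 and 198 CPM after DMSO, so the Isx-9 values lay inside the DMSO range. Its log2 fold change was -0.036 (SE 0.15, edgeR adjusted p = 0.865). Fabp2, the intestinal fatty acid binding protein, was at 52.3 and 63.8 CPM after Isx-9 and at 50.7 and 61.5 CPM after DMSO, with a log2 fold change of 0.049 (SE 0.13, edgeR adjusted p = 0.777). Mttp and Fabp2 were both higher in replicate 2 than in replicate 1 of each treatment.

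Fabp1, the liver-type fatty acid binding protein that enterocytes also make, was at 2.24 and 5.19 CPM after Isx-9 and at 4.36 and 12.3 CPM after DMSO. The treatments overlapped, and the log2 fold change of -1.16 (SE 0.48) did not pass (edgeR adjusted p = 0.0700). Within each replicate number, however, the Isx-9 value was below the DMSO value. With replicate number as a block Fabp1 was called lower, at -1.12 (edgeR adjusted p = 0.00465). Leaving out a library moved the Fabp1 value as well, between -1.87 and -0.24 over all 4 omissions. It was -1.87 without Isx-9 replicate 2 and -1.73 without DMSO replicate 1. Rbp2, the intestinal retinol binding protein, was at 4.98 and 7.43 CPM after Isx-9 and at 5.28 and 12.1 CPM after DMSO, with a log2 fold change of -0.49 (SE 0.37, edgeR adjusted p = 0.307). It passed without DMSO replicate 1, at -0.97 (adjusted p = 0.0164), and changed sign without DMSO replicate 2, at 0.23.

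The apolipoproteins that coat the particle did not pass. Apoa1 was at 7.87 and 8.83 CPM after Isx-9 and at 5.11 and 11.8 CPM after DMSO, with a log2 fold change of -0.021 (SE 0.34). Apoa4 was at 11.3 and 16.7 CPM after Isx-9 and at 9.10 and 20.6 CPM after DMSO, with a log2 fold change of -0.083 (SE 0.32). In both genes the Isx-9 values lay inside the DMSO range. Apoc3, which encodes an inhibitor of lipoprotein lipase, had 0 and 13 counts after Isx-9 and 4 and 8 counts after DMSO and was too low to test.

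Replicates of one treatment differed in several members. DMSO replicate 2 stood above DMSO replicate 1 by 2.82-fold for Fabp1, 2.30-fold for Rbp2, 2.32-fold for Apoa1 and 2.27-fold for Apoa4, while the same ratio was 0.995 for Apob. Isx-9 replicate 2 stood above Isx-9 replicate 1 by 2.31-fold for Fabp1, 1.49-fold for Rbp2, 1.12-fold for Apoa1 and 1.48-fold for Apoa4, with 0.934 for Apob. The enterocyte markers did not move together between the DMSO libraries: replicate 2 over replicate 1 gave 3.32 for Sis, 2.73 for Slc2a2 and 2.05 for Alpi, but 1.11 for Slc5a1, 1.02 for Mgam, 0.837 for Mep1a, 0.734 for Anpep and 0.239 for Lct. Of 12 enterocyte markers tested, 3 rose (Alpi, Enpep and Mep1a) and 1 fell (Mgam), where 27.3% of all tested genes rose and 20% fell. The call of Alpi was lost without Isx-9 replicate 2 or DMSO replicate 1. The summed level of the 12 markers was 1246 and 1287 CPM after Isx-9 and 1437 and 1537 CPM after DMSO. The part of carried-over enterocytes in the members' values was not tested.

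Of 115 genes in 7 lists of lipid and retinoid handling, 104 were tested in bulk, of which 29 rose, 32 fell and 43 did not pass. Of all genes tested 27.3% rose and 20% fell, so the number that rose is near that background, and the 32 that fell became 20 with scaling by library size alone and 18 without Isx-9 replicate 1. The median log2 fold change was -0.050 over these genes and 0.017 over all tested genes. In the retinoid list 13 of 23 tested genes rose and 4 fell, with a median of 1.42. Bco1, which cleaves beta-carotene to retinal, was at 18.3 and 13.6 CPM after Isx-9 and at 1.72 and 2.09 CPM after DMSO (log2 3.06, SE 0.27, edgeR adjusted p = 6.66e-06). Isx, the homeobox repressor of Bco1 and Scarb1, was at 37.3 and 36.9 CPM after Isx-9 and at 111 and 111 CPM after DMSO (log2 -1.58, SE 0.088, edgeR adjusted p = 2.54e-07). Lrat, which esterifies retinol, was at 32.8 and 31.4 CPM after Isx-9 and at 10.497 and 13.5 CPM after DMSO (log2 1.42, SE 0.16). Aldh1a2 and Crabp1, a retinal dehydrogenase and a retinoic acid binding protein, had 207 and 227 counts over both Isx-9 libraries and 0 counts over both DMSO libraries. Taking 3 counts in all as the DMSO limit, they were at least 63.2-fold and at least 69.3-fold higher. Aldh1a3, another retinal dehydrogenase, had 308 counts after Isx-9 and 3 after DMSO, a ratio of 94.0 (95% interval 31.9 to 458).

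Genes of lipid absorption that passed went in both directions at 6 hours, where 27.3% of all genes rose and 20% fell. In the list of fatty acid uptake and triglyceride synthesis 3 of 15 genes rose and 6 fell. Dgat1, which adds the last acyl chain to triglyceride, was at 30.3 and 39.2 CPM after Isx-9 and at 80.6 and 88.2 CPM after DMSO (log2 -1.28, SE 0.12, edgeR adjusted p = 1.31e-05). Mogat2, which acylates monoglycerides in enterocytes, was at 24.6 and 30.1 CPM after Isx-9 and at 11.3 and 10.6 CPM after DMSO (log2 1.32, SE 0.16). Slc27a2, an acyl-CoA synthetase and fatty acid transporter, fell by 0.82 on the log2 scale and the lipase gene Pnliprp2 rose by 0.63. Cd36, a fatty acid receptor, had 9 and 5 counts after Isx-9 and 0 and 4 after DMSO and was not tested. In the cholesterol list 2 of 10 rose and 3 fell. Nceh1, a cholesteryl ester hydrolase, rose by 0.82, while Soat2, which esterifies cholesterol, fell by 0.64 and Stard4, a sterol carrier, fell by 0.33 on the log2 scale. Scarb1, a lipoprotein and carotenoid receptor, was at 50.7 and 53.9 CPM after Isx-9 and at 44.8 and 38.4 CPM after DMSO (log2 0.33, edgeR adjusted p = 0.0301), a call that was lost when either Isx-9 library or DMSO replicate 2 was left out. Npc1l1, the cholesterol importer, did not pass at 0.24.

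Of 13 tested genes of lipoprotein assembly and secretion 3 rose and 4 fell. Beside this list and those below, 27.3% of all tested genes rose and 20% fell. Pltp, the phospholipid transfer protein, rose by 2.00 and Cideb, which acts in lipoprotein lipidation, rose by 0.97, while Sar1b, the GTPase of chylomicron export, fell by 0.51 and Mia2, a partner in that export, fell by 0.35 on the log2 scale. Apobec1, the enzyme that edits Apob mRNA, was at 8.92 and 4.89 CPM after Isx-9 and at 4.52 and 4.35 CPM after DMSO and did not pass (log2 0.64, edgeR adjusted p = 0.135). In the oxidation and ketogenesis list 2 of 14 rose and 5 fell. Pdk4, a kinase that inhibits pyruvate dehydrogenase, rose by 2.33. Hadha, a subunit of the trifunctional protein of fatty acid oxidation, fell by 0.49 on the log2 scale, and Acaa2, a thiolase, fell by 0.39 but lost its call without Isx-9 replicate 1. In the list named other fatty acid binding proteins, which also held Scp2 and Dbi from outside the Fabp family, 2 of 4 tested genes rose and none fell. These were Fabp5, by 0.84, and the sterol carrier Scp2, by 0.46 on the log2 scale. Fabp6, the bile acid binding protein, had 2 and 4 counts after Isx-9 and 0 and 0 after DMSO and was not tested.

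Of 25 regulators of enterocyte lipid genes 4 rose and 10 fell, where 27.3% of all tested genes rose and 20% fell. Hnf4a, a nuclear receptor of intestinal and hepatic genes, was at 800 and 866 CPM after Isx-9 and at 1155 and 1173 CPM after DMSO (log2 -0.48, SE 0.073, edgeR adjusted p = 0.000306). A fall was common at such levels: 58.4% of genes above 100 CPM in DMSO fell. Creb3l3, a regulator of apolipoprotein genes, was at 1.35 and 1.80 CPM after Isx-9 and at 2.69 and 5.34 CPM after DMSO (log2 -1.35, edgeR adjusted p = 0.0279), and its call was lost without either Isx-9 library or without DMSO replicate 2. Maf rose by 2.74, Prdm1, a repressor of adult enterocyte genes in the neonatal gut, by 1.76 and the coactivator Ppargc1a by 1.71. The call of Prdm1 was lost without Isx-9 replicate 1. Cdx2 (0.0050), Hnf4g (0.26) and Ppara (-0.30) did not pass.

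**Figure D2:**
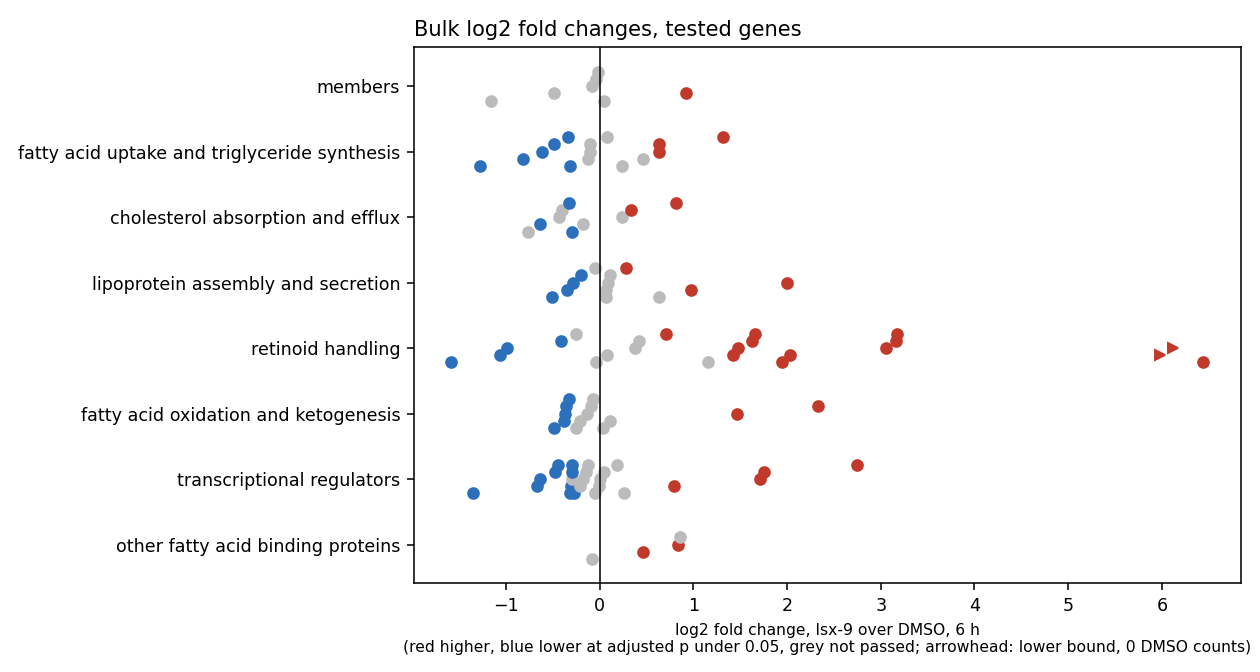
Log2 fold changes, Isx-9 over DMSO at 6 hours, of the members (top) and of the 7 pathway lists in the bulk libraries, with 1 symbol per tested gene, red for genes that rose, blue for genes that fell and grey for genes that did not pass. Apob, at 0.92, is the only red symbol among the members, and 13 of 23 retinoid genes are red.

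After 6 days in whole organoids 7 of 8 members were at least 2-fold lower with Isx-9 than with DMSO and Apob was higher. Over the 9389 genes compared, 4.12% were at least 2-fold lower and 19.5% at least 2-fold higher. The median log2 ratio was -4.45 over the members and 0.22 over all these genes. Summed over the 8 members the level was 214 CPM after Isx-9 and 1902 CPM after DMSO, a ratio of 0.113.

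Fabp1 was almost lost. It had 36 UMIs in 19 of 9215 cells after Isx-9, against 68686 UMIs after DMSO, 58630 in untreated reporter and 41997 in wild-type organoids. These are 0.372 CPM against 613, 510 and 354 CPM. Isx-9 stood 1647-fold below DMSO (interval 1190 to 2352), and this ratio was the lowest of all 9389 genes. Rbp2 was at 16.8 CPM after Isx-9, 325 CPM after DMSO, 282 CPM in reporter and 131 CPM in wild-type organoids, 19.4-fold below DMSO (18.4 to 20.4). Fabp2 was at 52.4 CPM after Isx-9, 385 CPM after DMSO, 377 CPM in reporter and 271 CPM in wild-type organoids, 7.35-fold below DMSO (7.14 to 7.57).

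The genes of the chromosome 9 cluster were all low after Isx-9. Apoa1 was at 6.10 CPM after Isx-9, 281 CPM after DMSO, 210 CPM in reporter and 173 CPM in wild-type organoids, 46.1-fold below DMSO (42.5 to 50.1). Apoa4 was at 2.34, 91.1, 65.0 and 32.1 CPM in the same order, 39.0-fold below DMSO (34.2 to 44.7). Apoc3 was at 2.63, 65.2, 54.3 and 31.5 CPM in that order, 24.8-fold below DMSO (21.9 to 28.2). Each of the 3 control libraries was above the Isx-9 library in these genes.

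The particle scaffold and its loading protein changed less. Mttp was at 27.6 CPM after Isx-9, 80.4 CPM after DMSO, 74.7 CPM in reporter and 49.9 CPM in wild-type organoids, 2.91-fold below DMSO (2.79 to 3.04). Apob was at 106 CPM after Isx-9, 59.9 CPM after DMSO, 53.0 CPM in reporter and 42.3 CPM in wild-type organoids, 1.77-fold above DMSO (1.71 to 1.82). Isx-9 was the highest of the 4 libraries for Apob and the lowest for each of the other 7 members.

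**Figure D3:**
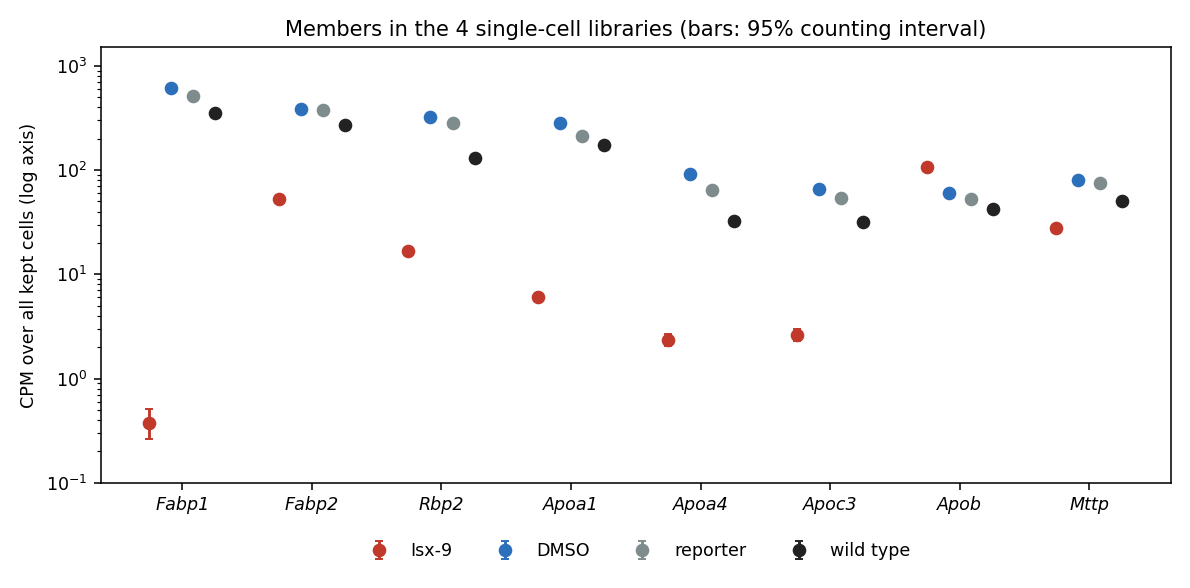
CPM of each gene over all kept cells of the 4 single-cell libraries, on a log axis, with 95% counting intervals as bars. Fabp1 is at 0.372 CPM after Isx-9 and at 354 to 613 CPM in the other libraries, and Apob is the gene with Isx-9 on top, at 106 CPM.

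The controls also differed among themselves. DMSO over untreated reporter gave ratios between 1.02 for Fabp2 and 1.40 for Apoa4, with 1.13 for Apob, and all 8 members were higher in DMSO. Reporter over wild type gave ratios between 1.21 for Apoa1 and 2.14 for Rbp2, with Apoa4 at 2.02 and Apob at 1.25. The share of cells in enterocyte-like clusters, described next, was 10.3% after DMSO, 9.49% in reporter and 7.99% in wild-type organoids.

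Cells of the 4 libraries were clustered together without the members or the pathway lists among the variable genes. A cluster was called enterocyte-like from 12 brush border and digestive markers. Clusters 15 and 9 met this, each with 11 of the 12 markers detected and a median log2 fold of 2.39 and 2.41 over the other cells. Cluster 15 was led by Reg1, Fabp1 and Rbp2 and had a median of 15571 UMIs per cell. Cluster 9 had Apoa4, Apoa1 and Alpi but also Gm26917, Lars2 and the stress gene Sprr1a among its 10 leading genes, and a median of 1841 UMIs per cell. Together they held 28 of 9215 Isx-9 cells (0.304%), 846 of 8251 DMSO cells, 839 of 8841 reporter cells and 643 of 8045 wild-type cells. Of the 12 enterocyte markers, 9 reached 10 CPM, of which 5 were at least 2-fold lower and 1 at least 2-fold higher after Isx-9 (4.12% and 19.5% of all 9389 genes). The 12 summed to 263 CPM after Isx-9, 469 CPM after DMSO, 414 CPM in reporter and 551 CPM in wild-type organoids.

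In DMSO organoids these 2 clusters held 7.72% of all UMIs and 70.1% of the members' UMIs. The share was 90.9% for Fabp1, 81.8% for Rbp2, 76.3% for Apoa4, 74.5% for Apoc3 and 68.8% for Apoa1. Mttp at 45.7%, Fabp2 at 37.1% and Apob at 30.1% were spread more widely. Fabp1 had the highest share and Apob the lowest in the untreated libraries too. Fabp1 had 88.5% in reporter and 88.2% in wild-type organoids, Fabp2 had 31.1% and 21.3%, and Apob had 29.0% and 17.2%. The 8 members together had 65.9% and 56.1%. Apoa1 had 71.2% in reporter but 41.7% in wild-type organoids. There, cluster 10 (described below) held 11037 of the 20597 Apoa1 UMIs, against 8585 in the enterocyte-like clusters.

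The 2 enterocyte-like clusters did not hold the members in the same proportions. In DMSO organoids Fabp1 was at 3908 CPM in cluster 9 and 7617 CPM in cluster 15. The particle genes ran the other way. Apoa4 was at 2168 CPM in cluster 9 and 750 CPM in cluster 15, Apoa1 at 4608 and 2254 CPM, Apoc3 at 990 and 586 CPM, and Apob at 421 and 211 CPM. Mttp was at 473 and 476 CPM. The ratio of cluster 9 to cluster 15 was 0.487 to 0.589 for Fabp1, 2.89 to 4.53 for Apoa4, 2.04 to 2.84 for Apoa1 and 1.89 to 1.99 for Apob across the DMSO, reporter and wild-type libraries. Depth differed with the clusters, at medians of 1892.5 and 15337.5 UMIs per DMSO cell, and its part in these ratios was not tested.

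Cluster 10 carried apolipoproteins with far less Fabp1 than cluster 15. It was led by Fabp6, Lgals3, Ly6d and Sprr1a, genes of the ileal bile acid pathway and of epithelial injury. Its best marker list was regenerative or injury, at a median log2 fold of 3.63 over the other cells. The enterocyte list came second at 1.63, so enterocyte markers were high in this cluster too. Cluster 10 held 310 DMSO, 244 reporter and 910 wild-type cells but 5 Isx-9 cells. Apoa1 was at 2007 CPM there in DMSO, 1575 CPM in reporter and 897 CPM in wild-type organoids, which is 1.12-fold, 1.05-fold and 1.41-fold below its level in cluster 15. Apoa4 was 1.81-fold, 1.77-fold and 4.46-fold below cluster 15 in those libraries, and Apoc3 2.52-fold, 1.20-fold and 4.07-fold. Fabp1 was at 369, 246 and 98.6 CPM in cluster 10 in those libraries, which is 20.6-fold, 24.3-fold and 73.6-fold below cluster 15. In DMSO and reporter this was still the highest Fabp1 level outside the enterocyte-like clusters. In wild-type organoids cluster 14 was higher, at 258 CPM. Apob was at 212, 182 and 86.3 CPM in cluster 10 and at 211, 182 and 136 CPM in cluster 15. The count of Fabp1 UMIs per Apoa1 UMI was 0.184 in cluster 10 in DMSO, 0.156 in reporter and 0.110 in wild-type organoids, and 2.88, 3.01 and 4.32 in the enterocyte-like clusters.

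Other clusters held some of the members. In cluster 14, led by Dmbt1 and Ces2a, Fabp1 was at 169 CPM in DMSO, 221 CPM in reporter and 258 CPM in wild-type organoids and Rbp2 at 161, 189 and 136 CPM, while Apoa4 stayed at 5.73 to 11.5 CPM. Fabp2 and Mttp were at 309 and 82.0 CPM in the DMSO cells of cluster 14. In cluster 19, enteroendocrine-like and led by Gcg, Nts, Pyy and Gip, Rbp2 reached 439 CPM in DMSO, 387 CPM in reporter and 177 CPM in wild-type organoids. In cluster 16, enteroendocrine-like with Tph1 and Afp, Apoc3 was at 73.8 CPM in DMSO, 71.2 CPM in reporter and 28.1 CPM in wild-type organoids, and at 3.29 CPM after Isx-9. Fabp2 reached well beyond enterocytes: in DMSO it was at 266 CPM in cluster 7, led by the stem cell gene Olfm4, 292 CPM in the cycling-like cluster 8 and 232 CPM in the goblet-like cluster 17, against 37.2 CPM in tuft-like cluster 6.

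The members were also read at low levels in cell types with no known role in lipid absorption. RNA outside cells was not measured here, and its part in these levels was not tested. In DMSO organoids tuft-like cells showed Fabp1 at 46.2 CPM, goblet-like cells at 20.4 CPM and Paneth-like cells at 51.8 CPM. Cells of at least 2000 UMIs were thinned to 2000 UMIs each, which left out 269 Isx-9 and 360 DMSO cells. A Fabp1 UMI was then found in 0.0447% of the thinned Isx-9 cells and 12.8% of the thinned DMSO cells. Without thinning it was found in 0.206% of Isx-9 and 31.8% of DMSO cells. Within the DMSO library the thinned share was 76.5% in cluster 15, 11.3% in tuft-like, 7.32% in Paneth-like and 5% in goblet-like cells. In cluster 9 it was 66.7%, from 141 of 314 cells, against 53.2% of all its cells without thinning. The count of Fabp1 per Apoa1 UMI was 3.15 in tuft-like, 2.39 in Paneth-like and 0.986 in goblet-like cells, against 2.88 in the enterocyte-like clusters. For Apob against Fabp1, tuft-like cells had 56 to 82 UMIs, and enterocyte-like cells had 2021 to 62424. Fabp1 in 13 other DMSO clusters ran from 11.1 to 369 CPM. In Isx-9 organoids the 6 other clusters of at least 50 cells ran from 0 to 0.462 CPM. All 13 DMSO clusters lay above all 6 Isx-9 clusters for Fabp1, and 10 of 13 did so for Fabp2 and Apoc3. The number was 7 for Apoa4, 6 for Mttp, 5 for Rbp2, 3 for Apoa1 and 1 for Apob. Such counts were not made over all genes. Clusters of 1 library are not replicates, so a difference of the whole library would move them together. Whether Fabp1 levels near the tuft-like value are expression by those cells was not tested.

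**Figure D4:**
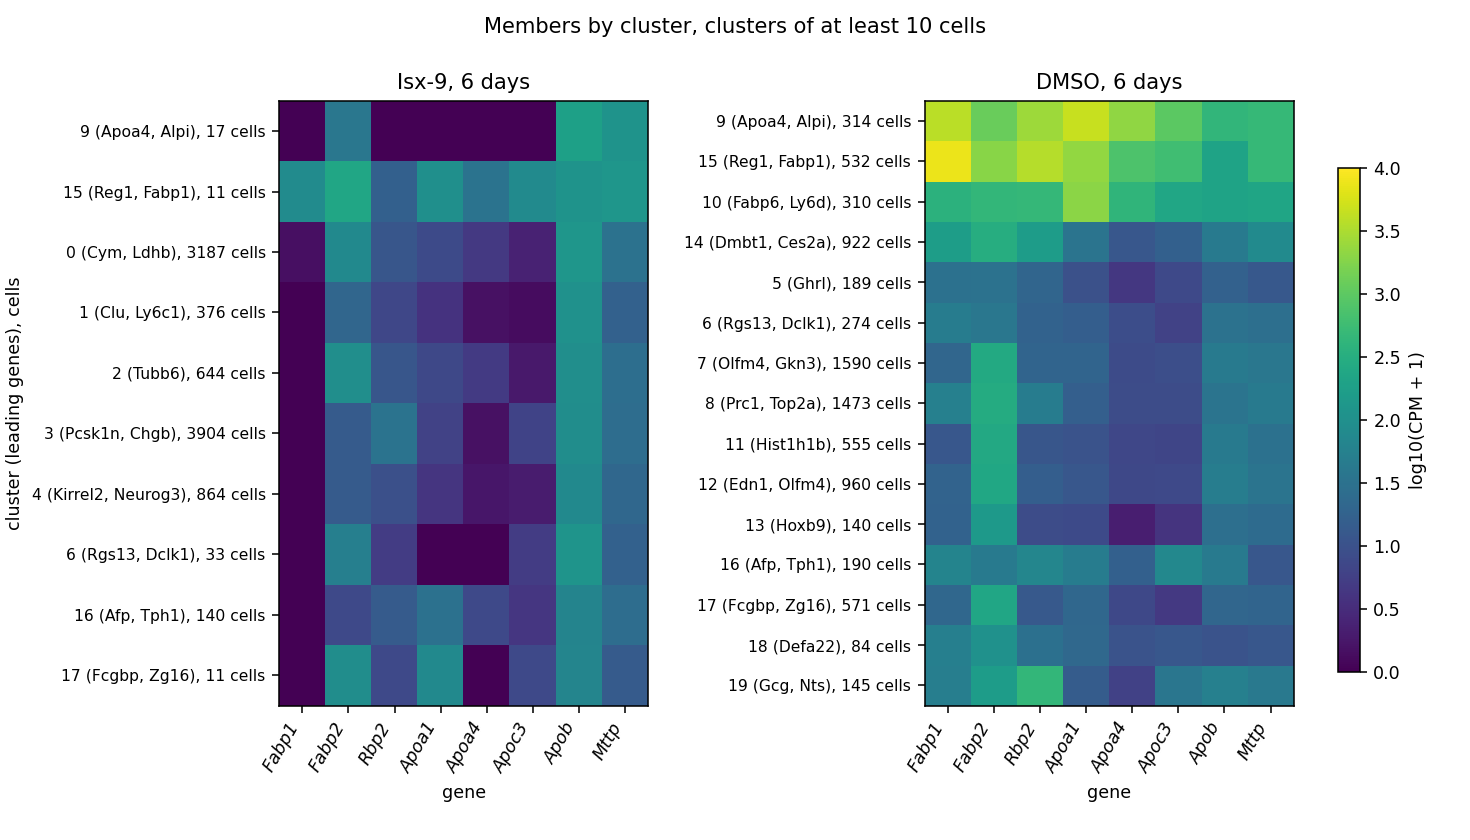
Level of each gene as log10(CPM + 1) by cluster, Isx-9 left and DMSO right, for clusters of at least 10 cells with their leading genes and cell numbers. Bright squares of all members lie in clusters 9 and 15 of DMSO and Apoa1 is bright in cluster 10; the Isx-9 panel is dark for Fabp1 outside cluster 15 (11 cells) and even across clusters for Apob.

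The few enterocyte-like cells of Isx-9 organoids held little of the members. Of 36 Fabp1 UMIs in that library, 16 lay in 6 of these 28 cells, and no single cell had more than 7. Within enterocyte-like clusters Fabp1 was at 74.6 CPM after Isx-9 and 7222 CPM after DMSO, 96.8-fold lower (59.6 to 169). Rbp2 had 3 UMIs after Isx-9 and 29805 after DMSO, a ratio of 0.00406 (0.000837 to 0.0119). Apoa1 was at 83.9 and 2505 CPM, 29.8-fold lower after Isx-9. Apob was at 121 CPM after Isx-9 and 234 CPM after DMSO there, a ratio of 0.519 (0.338 to 0.762), opposite to the whole library. Of the 28 cells 17 belonged to the shallow cluster 9, with a median of 1380 UMIs. Their median mitochondrial share was 14.9%, against 7.54% in DMSO cells of cluster 9, and its part in these levels was not tested. The 11 cells of cluster 15 had a median of 18814 UMIs and a mitochondrial share of 5.89%. They held all 16 Fabp1, 18 Apoa1 and 3 Rbp2 UMIs and 21 of the 26 Apob UMIs. Fabp1 was at 85.1 CPM in them, against 7617 CPM in DMSO cells of cluster 15.

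Without the enterocyte-like clusters, an alternative chosen after seeing the data, 6 members were still at least 2-fold lower after Isx-9. The share of all genes at least 2-fold lower was 4.12% over all kept cells and was not computed for these cells. Fabp1 was at 0.207 CPM after Isx-9 and 60.6 CPM after DMSO, 292-fold lower. That DMSO level pools unlike clusters, from 11.1 CPM in cluster 11 to 369 CPM in cluster 10. Apoa1 was 16.1-fold, Apoa4 10.2-fold, Apoc3 7.27-fold, Fabp2 5.05-fold and Rbp2 3.83-fold lower. Mttp was 1.72-fold lower. Apob was at 106 CPM after Isx-9 and 45.4 CPM after DMSO, 2.33-fold higher (2.25 to 2.42). With cluster 10 (5 Isx-9 and 310 DMSO cells) left out as well, also chosen after seeing the data, Apoa1 was at 5.93 CPM after Isx-9 and 17.4 CPM after DMSO, 2.94-fold lower (2.67 to 3.24). Fabp1 was then 232-fold, Apoa4 3.28-fold, Apoc3 3.76-fold, Rbp2 2.86-fold, Fabp2 4.90-fold and Mttp 1.46-fold lower, and Apob was 2.74-fold higher.

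Apob was found in every larger cluster of Isx-9 organoids. In the 6 clusters of at least 50 cells outside the enterocyte-like ones it ran from 62.5 to 126 CPM after Isx-9, and in 13 such clusters after DMSO from 9.43 to 212 CPM, where 12 lay below the lowest Isx-9 cluster. Without cluster 10 the highest of those DMSO clusters was cluster 19, at 54.3 CPM. After Isx-9 cluster 0, led by Cym and Ldhb, had 126 CPM, cluster 1, led by Clu and Ly6c1, 105 CPM, cycling-like cluster 2 had 92.8 CPM, and the enteroendocrine-like clusters 3 and 4 had 91.2 and 77.6 CPM. Clusters 0 to 4 held almost no DMSO cells, so a cluster may be its library here. The count of DMSO clusters below the Isx-9 clusters was not made over all genes. In enteroendocrine-like cells Apob was at 88.4 CPM after Isx-9 and 37.0 CPM after DMSO (ratio 2.39, 2.04 to 2.83), where 4918 Isx-9 cells lay mostly in clusters 3 and 4 and 524 DMSO cells mostly in clusters 5, 16 and 19. In cluster 16, with 140 Isx-9 and 190 DMSO cells, Apob was at 62.5 CPM after Isx-9 and 41.8 CPM after DMSO, a ratio of 1.496 whose interval of 0.839 to 2.56 includes no difference. In tuft-like cluster 6, shared by both libraries, Apob was at 115 CPM in 33 Isx-9 cells and 31.6 CPM in 274 DMSO cells, a ratio of 3.63 (2.22 to 5.81).

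**Figure D5:**
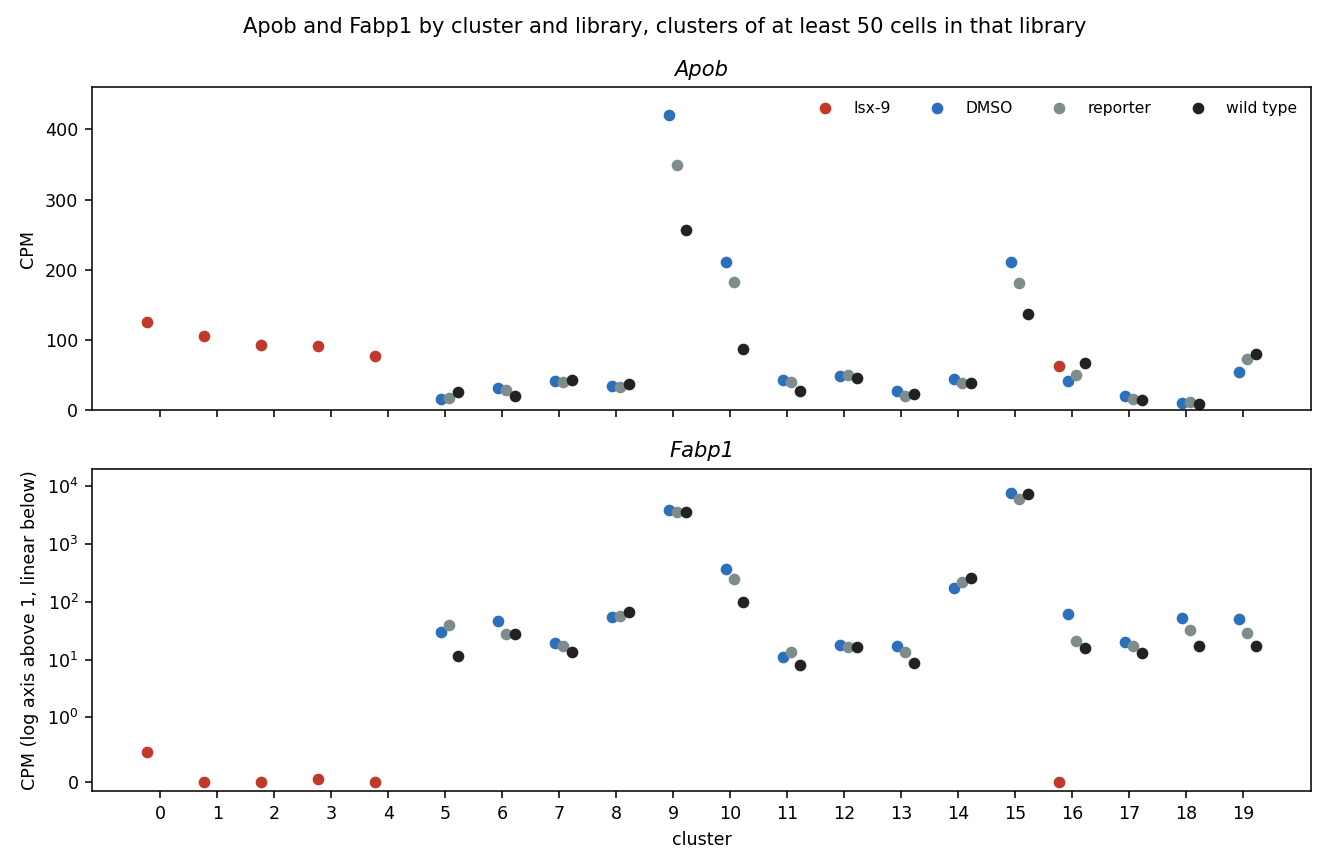
CPM of Apob (linear axis, top) and Fabp1 (log axis above 1, linear below, bottom) by cluster, for clusters of at least 50 cells in a library, coloured by library. Apob lies between 62.5 and 126 CPM in the Isx-9 clusters while Fabp1 lies between 0 and 0.462 CPM in them; in the control libraries Fabp1 peaks in clusters 9 and 15 and Apob in cluster 9, with clusters 10 and 15 at 212 and 211 CPM in DMSO.

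Across 51 cluster-by-library sums, Pearson correlation with the members' mean z-score, on log2(CPM + 1), was 0.97 for Apoa4, 0.95 for Apoc3, 0.94 for Apoa1, Rbp2 and Mttp, 0.90 for Fabp1 and 0.77 for Fabp2 and Apob. Without the 6 sums of the Isx-9 library it was 0.92 for Apob and 0.78 for Fabp2. Apoa1 and Apoa4 correlated with each other at 0.97. The genes most like the members were Mt4 (0.95), a metallothionein, Ces2c (0.94), a carboxylesterase, Creb3l3 (0.94), Slc6a20a, Sec23a, Abcc2, Cyp3a25, Slc3a1, Gsta2 and Dnah2, all at 0.92 or above of 12438 genes compared. Each member is part of the mean it was compared with, which raises its value. Outside genes such as Mt4 are not part of it, so their values do not compare directly with those of the members. These sums share libraries and depth, and the correlations are descriptions.

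In the pathway lists at 6 days the retinoid genes moved both ways. Of 12 that reached 10 CPM in the Isx-9 or the DMSO library, 5 were at least 2-fold higher and 5 at least 2-fold lower after Isx-9. The shares over all 9389 genes were 19.5% and 4.12%. Genes named here were chosen because of their values. Crabp1 was at 24.9 CPM after Isx-9 with 0 UMIs after DMSO, at least 928-fold higher when 3 UMIs are taken as the DMSO limit. Bco1 was at 22.6 and 3.85 CPM, Rdh10 at 42.0 and 16.6 CPM and Rbp4, the plasma carrier of retinol, at 87.5 and 36.1 CPM in Isx-9 and DMSO organoids. Isx was at 27.4 CPM after Isx-9 and 83.5 CPM after DMSO, Adh1 at 39.0 and 156 CPM, Aldh1a1 at 27.9 and 64.7 CPM, Rdh11 at 24.7 and 51.5 CPM and Rdh7 at 1.21 and 13.4 CPM. Bco1 was thus higher and Isx lower after Isx-9 at both times, while Rdh10 fell in stem cells at 6 hours (log2 -1.07) and was higher in organoids at 6 days.

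Lipid genes also moved both ways. Dgat1 was at 17.2 CPM after Isx-9 and 77.0 CPM after DMSO, Slc27a2 at 8.06 and 23.6 CPM, Creb3l3 at 2.25 and 17.01 CPM, and Soat2 at 2.78 and 10.48 CPM at 6 days. Scarb1 was at 27.5 CPM after Isx-9 and 10.2 CPM after DMSO. Hnf4a was at 57.2 CPM after Isx-9 and 101 CPM after DMSO, Cdx2 at 116 and 141 CPM, Hnf4g at 28.9 and 33.1 CPM, and Npc1l1 at 14.5 and 16.1 CPM. Counts over the lists at 6 days, at least 2-fold higher and lower after Isx-9, were 1 and 3 of 14 for fatty acid uptake, 2 and 1 of 8 for cholesterol, 2 and 1 of 12 for lipoprotein assembly, 1 and 1 of 12 for oxidation, 1 and 4 of 20 for regulators and 0 and 0 of 3 for other fatty acid binding proteins. The shares over all 9389 genes were 19.5% higher and 4.12% lower, and several of these small counts are near them. Among the higher genes were Clps, Scarb1, Nceh1, Apoc1, Apoe and Maf, and the lower ones Slc27a2, Acsl5, Dgat1, Soat2, Tm6sf2, Ehhadh, Cdx1, Pparg, Nr5a2 and Creb3l3, all named after their values were seen. Markers of other cell types moved with the library too: 12 of 12 enteroendocrine markers were at least 2-fold higher, and 8 of 9 goblet and 9 of 9 Paneth markers at least 2-fold lower after Isx-9. The part of cell composition in the whole-library ratios was not tested beyond the values by cluster above.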

How the data were processed

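Single-cell and bulk libraries were grouped by their labels. The authors deposited whole-number counts per gene for bulk RNA and UMI counts per gene and cell for single cells. Per the submitters' processing notes, which name no order, tools were Trim Galore 0.6.4, HISAT2 (no version named), HTSeq 0.12.4, Cell Ranger 3.1.0 and Seurat 3.1.5 on GRCm38. The sources used here give no annotation or counting settings, and the bulk kit does not mark strand. The authors' deposited DESeq2 1.24.0 table gives a signal (mean normalized count), log2 fold changes with standard errors, a score (Wald statistic) and p-values.

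Bulk counts were tested with edgeR 4.0.16 in R 4.3.3 (filterByExpr, TMM, quasi-likelihood F test, 2-sided, Benjamini-Hochberg over 17418 genes, threshold 0.05). Rose and fell are used of genes that passed. On simulated data of 17202, 17186 and 17187 genes with 200 changed, 40%, 66% and 90% were recovered at folds of 1.5, 2 and 4, with 7, 6 and 8 false calls. As many genes were raised as lowered there, and far fewer changed than the 47.3% called in the data. The false calls of the real fit are therefore not known from it. The labels state no pairing of same-numbered libraries, so the test used treatment alone.

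Cells needed 500 genes, 1000 UMIs and a mitochondrial share of no more than 20%. Scrublet's own threshold marked 831, 0, 0 and 1 cells in the Isx-9, DMSO, reporter and wild-type libraries, so the 8% of cells with the highest scores were left out of each. Cells were clustered with scanpy 1.11.5 (2000 variable genes, 30 components, 15 neighbours, Leiden resolution 1). CPM are sums over cells. A ratio has an exact 95% binomial interval, covering counting error only. The members and gene lists were chosen with earlier results of these data known. Named genes were the 8 members, up to 4 genes per list with the largest changes that passed, and 15 genes whatever their result; some of these are not reported here. Alternatives, DESeq2 1.42.0 among them, are in the closing section.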

Additional observations from a re-analysis of the deposited data

How the results depend on the processing

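Apob kept its call at 6 hours under every alternative run: DESeq2, library size alone, no low-count filter, the replicate block and leaving out each library (log2 0.88 to 0.99 over these omissions, 1.04 with library size alone). Scaling by library size alone moved the median log2 fold change of all genes to 0.14, and 7123 genes were called by DESeq2 against 8243. That scaling turned the sign of uncalled Apoa1 (0.10), Apoa4 (0.039) and Mttp (0.088), and called 20 pathway genes lower in place of 32. Deviations of same-numbered libraries correlated at -0.0076 across genes. In both treatments, though, replicate 2 was above replicate 1 for Fabp1, Fabp2, Rbp2, Apoa1, Apoa4 and Mttp. Whether the numbers mark a shared batch was not tested. With the replicate block 1 member was called lower, Fabp1 at -1.12 (edgeR adjusted p = 0.00465), and uncalled Apoa1 turned to 0.073. Leaving out 1 library at a time gave 0 to 2 members lower, 18 to 28 pathway genes lower and 22 to 29 higher, with 18 lower without Isx-9 replicate 1; the cause was not tested. Ranges of log2 fold changes were -0.092 to 0.19 for Fabp2, -0.97 to 0.23 for Rbp2, -0.51 to 0.70 for Apoa1, -0.56 to 0.61 for Apoa4 and -0.26 to 0.21 for Mttp. At 6 days the summed ratio of 0.113 became 0.126 with at most 10% mitochondrial UMIs, 0.117 with doublets kept, 0.0421 in enterocyte-like clusters alone, 0.345 without them, 0.459 without them and cluster 10, and 0.0958 with median-ratio scaling; the ratio of Apob reversed in enterocyte-like clusters alone (0.519) and was otherwise 1.504 to 2.74. The share of members' UMIs in enterocyte-like clusters became 65.4% at resolution 0.5 and 71.8% with the members among the variable genes. Depth limits Apoc3 in bulk (0 to 13 counts a library) and the 28 Isx-9 enterocyte-like cells, where the members had 3 to 45 UMIs each.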
